A study of Mus musculus with 2 samples.

Results

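Calcium release channels and dyad proteins are covered here as 10 genes taken by name from a list, out of 55536 annotated genes measured. They are the ryanodine receptors Ryr1, Ryr2 and Ryr3, the inositol 1,4,5-trisphosphate (InsP3) receptors Itpr1, Itpr2 and Itpr3, the junctional protein Jph2, and the reticulum proteins Trdn, Asph and Casq2. All 10 were found in the tables. Total RNA was sequenced from whole hearts of female B6CASTF1/J mice, an F1 hybrid strain, at 25 days of age, in 1 group of 2 libraries. Each library was started from 300 ng of RNA, and its ERCC spike-in label names a profile for stranded, ribosomal RNA-reduced libraries. Both samples carry the same donor label but different animal numbers, and they were treated as 2 animals, replicate 1 and replicate 2. The labels name no treatment, mutation or control, so the levels below describe 1 tissue, and the tests compare 1 library with the other.

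In heart muscle cells an action potential opens calcium channels of the T-tubule, and the small calcium entry opens ryanodine receptors in the facing membrane of the sarcoplasmic reticulum, which release the stored calcium that drives contraction. The contact between the membranes is the dyad. Junctophilin 2 holds the membranes together, calsequestrin 2 stores calcium inside the reticulum, and triadin and junctin, a product of the Asph gene, connect calsequestrin with the release channel. InsP3 receptors release calcium after receptor signals that activate phospholipase C, and in the heart they are known from muscle cells, vessels and other cell types.

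The libraries held 42966739 gene counts in replicate 1 and 42720824 in replicate 2, of which the 10 genes took 0.620% and 0.639%. All 5 cardiomyocyte markers checked were detected, at medians of 3969 TPM and 4135 TPM. TPM, a transcript abundance, is corrected for transcript length and scaled to a fixed total, so it can be compared between genes. Each gene has a value from alignments to the transcriptome and a second value summed from a separate read-based quantification. The alignment-based value is meant where none is named, and a gene was called detected at 1 TPM or more in both hearts.

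Of the 10 genes, 8 were detected, and the genes formed 3 levels. Casq2, Ryr2, Jph2, Trdn and Asph lay above 100 TPM, the InsP3 receptors lay between 1 TPM and 20 TPM, and Ryr3 and Ryr1 lay below the detection limit. The deposited posterior mean TPM, a further estimate, put Ryr3 above that limit, at 1.43 TPM and 1.36 TPM. In descending order the genes were Casq2, Ryr2, Jph2, Trdn, Asph, Itpr1, Itpr2, Itpr3, Ryr3 and Ryr1. All 9 neighbouring pairs in this order stood apart, in that neither heart of the higher gene reached down to the lower gene and the gap of the means exceeded the sum of the SDs. The read-based values gave the same order in both hearts. The rule for standing apart does not use the deposited credibility intervals, which are bounds on the posterior TPM. Those of Itpr3 and Ryr3 overlapped in both hearts, at 2.02 to 3.70 TPM against 0.439 to 3.03 TPM in replicate 1. The step from Ryr3 to Ryr1 rests on 2 and 4 counts of Ryr1. The closest step was Casq2 over Ryr2, at 1.10-fold, and the widest among detected genes was Asph over Itpr1, at 7.07-fold. Among 10972 detected protein-coding nuclear genes Casq2 ranked 127 and Ryr2 ranked 142, whereas Itpr1 ranked 3679 and Itpr3 ranked 9649.

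**Figure D1:**
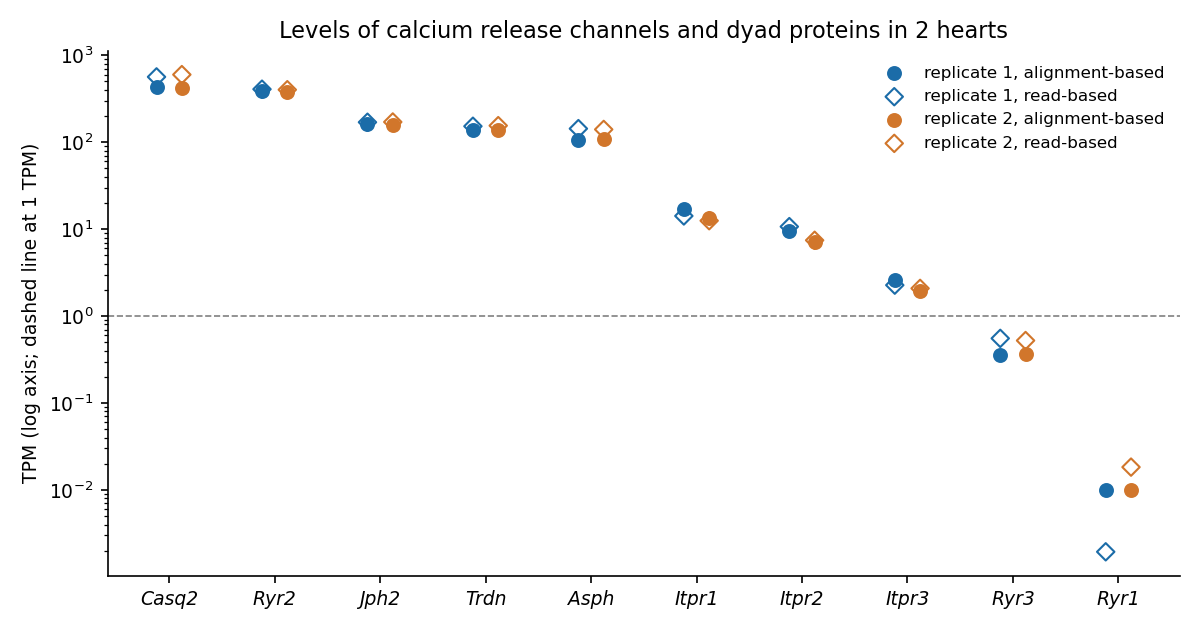
TPM (log axis) of the 10 genes in each heart, ordered by the mean; filled circles are alignment-based and open diamonds read-based values, blue for replicate 1 and orange for replicate 2. The 5 leftmost genes lie above 100 TPM, the 3 InsP3 receptors lie between them and the dashed line at 1 TPM, and Ryr3 and Ryr1 lie below it.

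Ryr2, the ryanodine receptor of heart muscle (ENSMUSG00000021313.16, minus strand of chr13:11553102-12106945, mm10), was by far the most abundant release channel of these hearts. It had 392.0 TPM in replicate 1, against 379.5 TPM in replicate 2, from 187826 and 193855 counts, and the mean was 385.8 ± 8.84 TPM (SD, n = 2). Ryr2 made up 99.9% of the summed TPM of the ryanodine receptors in each heart. Ryr3 (ENSMUSG00000057378.15, minus strand of chr2:112631355-113217096), a ryanodine receptor known from brain and from developing skeletal muscle, was at 0.36 TPM and 0.37 TPM from 127 and 102 counts. The log2 difference of Ryr2 over Ryr3 was 9.70 ± 0.05 (SD, n = 2) with a pseudocount of 0.1 TPM, 8.15 with a pseudocount of 1 TPM and 7.99 in posterior mean TPM. The deposited credibility interval of Ryr3, which belongs to a posterior mean, was 0.439 to 3.03 TPM in replicate 1 and lies above the gene's own TPM. Part of the span of Ryr3 is shared with Aven, on the opposite strand, at 7.05 TPM and 6.93 TPM. Their spans share 3219 bases, but how many of these lie in exons of both genes was not measured. Whether the counting used strand is not given in the sources used here, so reads in any such exon bases cannot be told apart.

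Ryr1 (ENSMUSG00000030592.18, minus strand of chr7:29003344-29125179), the ryanodine receptor of skeletal muscle, had 2 counts in replicate 1 and 4 in replicate 2. The exact Poisson intervals of these counts (95%, counting error only) run up to 7.22 and 10.2 counts. Of 6 fast skeletal muscle markers measured beside it, Myh1 and Myh4 were listed at an alignment-based TPM of 0 in both hearts. Their read-based values were at most 0.36 TPM. Acta1, an actin also made in heart muscle, was the single marker detected. Mylpf had 0.38 TPM in replicate 1 and 1.12 TPM in replicate 2, with posterior mean TPM of 1.43 and 2.13. Tnnt3 lay below 1 TPM in both hearts, but its posterior mean lay above 1 TPM in both. Atp2a1 had counts in both hearts and lay below 1 TPM by either estimate. The summed level of that marker list was 199 TPM in replicate 1 and 159 TPM in replicate 2, nearly all of it Acta1 at 198 TPM and 158 TPM.

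Most Ryr2 RNA was assigned to the transcript with the longest frame. Ryr2-201, with 105 exons and 4966 codons, held 81.4% of the gene's TPM in replicate 1 and 84.6% in replicate 2, and 85.1% and 89.0% in the read-based values. Ryr2-203, with 25 exons and a frame of 1020 codons, held 8.81% and 7.72%, but 3.02% and 2.23% in the read-based values. In expected counts, which weigh a transcript by its length, Ryr2-201 held 96.0% and 96.6% and Ryr2-203 held 3.00% and 2.54%. The frame of Ryr2-203 lacks 21 bases that Ryr2-201 carries at chr13:11903218-11903238 and ends with 15 bases of its own at chr13:11772405-11772419, which follow an exon of Ryr2-201 without a splice. The sequences below (GENCODE M21 transcripts, mm10, coding strand) are shown because they mark the points at which the short and the long frame part; capitals are bases that the other frame lacks.
Ryr2-201, around the 21 bases: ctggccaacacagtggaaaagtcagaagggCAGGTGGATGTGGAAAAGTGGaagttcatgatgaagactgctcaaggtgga
Ryr2-203, the same stretch: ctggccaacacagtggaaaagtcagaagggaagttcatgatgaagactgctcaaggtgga
Ryr2-203, end of its frame: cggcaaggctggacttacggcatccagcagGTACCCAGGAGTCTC

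Of the Ryr2 transcripts, 9 are annotated as retained introns, meaning that they keep intron sequence and have no coding frame. Together they held 28.0 TPM in replicate 1 and 18.5 TPM in replicate 2, or 7.15% and 4.87% of the gene. They took 0.749% and 0.525% of the gene's counts. The 8 with a mean count of at least 10 all had more scaled counts in replicate 1, with a median log2 ratio of replicate 1 over replicate 2 of 0.49. The 4 protein-coding Ryr2 transcripts of that depth split evenly, with a median of 0.03. Ryr2-205 had 180 counts in replicate 1 and 106 in replicate 2, a scaled ratio of 1.65 (95% exact interval 1.29 to 2.12). Ryr2-208 had 61.2 and 23.3 counts, a ratio of 2.58 (1.58 to 4.37). Across all genes 69.5% of 7163 retained-intron transcripts were higher in replicate 1, with a median of 0.36. Over all genes 49.0% of 26192 protein-coding transcripts were, with a median of -0.0077. A difference between the libraries in the same direction was thus present over all genes. Over the members, Ryr2 included, 11 of 14 retained-intron transcripts were higher in replicate 1 by alignment. In read-based values 9 of 15 were, and all 9 were of Ryr2. This grouping of transcripts was chosen after the values had been seen, and it gets no test.

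**Figure D2:**
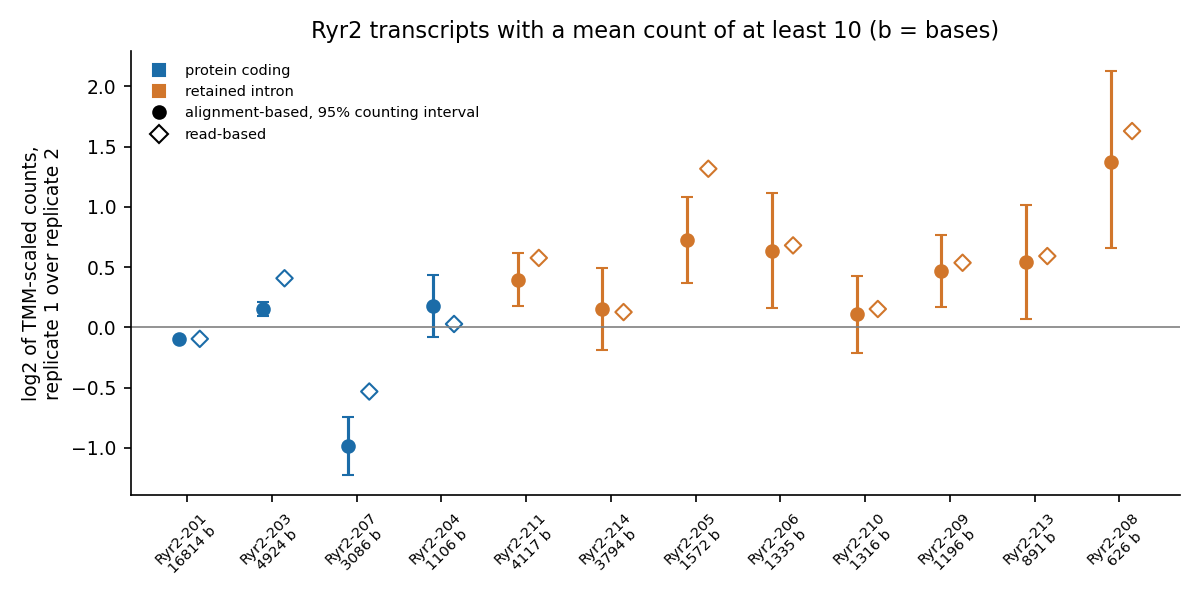
The log2 ratio of TMM-scaled counts, replicate 1 over replicate 2, for each Ryr2 transcript with a mean count of at least 10; blue marks protein-coding and orange retained-intron transcripts, filled circles carry 95% counting intervals and open diamonds are read-based. Every orange point lies above 0, whereas Ryr2-201 lies just below it and Ryr2-207 near -1.

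Each of the InsP3 receptor genes was detected, and the family sum was 29.2 TPM in replicate 1 and 22.4 TPM in replicate 2. Itpr1 (ENSMUSG00000030102.11, plus strand of chr6:108213096-108551109), the type 1 receptor known for its high level in cerebellar Purkinje cells, was at 16.96 TPM and 13.37 TPM, a mean of 15.2 ± 2.54 TPM (SD, n = 2). Itpr2 (ENSMUSG00000030287.15, minus strand of chr6:146108299-146502223), the type 2 receptor known as the main form of isolated heart muscle cells, was at 9.57 TPM and 7.05 TPM, a mean of 8.31 ± 1.78 TPM. Itpr3 (ENSMUSG00000042644.9, plus strand of chr17:27057304-27122223), the type 3 receptor, was at 2.63 TPM and 1.93 TPM, a mean of 2.28 ± 0.495 TPM. Itpr1 stood above Itpr2 and Itpr2 above Itpr3 in both hearts. Each of the 3 had the higher TPM in replicate 1.

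Itpr1 was the largest part of the InsP3 receptor family, followed by Itpr2. Itpr1 held 59.0 ± 1.17% of the family's TPM, Itpr2 held 32.2 ± 0.902% and Itpr3 held 8.83 ± 0.271% (SD, n = 2). In read-based values the shares were 54.5%, 36.6% and 8.91%, and in expected counts 52.3%, 35.2% and 12.6%. The log2 difference of Itpr2 over Itpr1 was -0.87 ± 0.07, and that of Ryr2 over Itpr2 was 5.54 ± 0.27. These are whole hearts, and in bulk tissue fewer cells of a type and less RNA per cell cannot be told apart. No marker of neurons was detected beside Itpr1: Tubb3, Snap25, Rbfox3 and Syt1 summed to 0.18 TPM in replicate 1 and 0.38 TPM in replicate 2. The endothelial markers summed to 176 TPM and 147 TPM and the smooth muscle markers to 184 TPM and 134 TPM; their part in the InsP3 receptor levels was not tested.

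The split of Itpr1 into transcripts differed between the tables more than its sum did. Itpr1-201 and Itpr1-205, with frames of 2749 and 2748 codons, differ in their coding sequence by 3 bases at chr6:108432646-108432648. The alignment-based table gave Itpr1-201 3.86 TPM in replicate 1 and 0.50 TPM in replicate 2, and Itpr1-205 3.20 TPM and 5.87 TPM. The read-based table gave Itpr1-201 7.24 TPM and 5.46 TPM, and Itpr1-205 0.63 TPM and 1.83 TPM. The order of the pair therefore differed between quantifications and, in the alignment-based table, between hearts. The sum of the pair was 7.06 TPM and 6.37 TPM by alignment and 7.87 TPM and 7.29 TPM by reads. Both stretches are shown because so small a difference separates these forms; capitals are the bases that only Itpr1-201 carries.
Itpr1-201: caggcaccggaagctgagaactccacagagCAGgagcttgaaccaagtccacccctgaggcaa
Itpr1-205: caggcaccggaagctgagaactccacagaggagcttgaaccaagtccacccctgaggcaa

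Itpr2 also carried a pair of long forms, but their shares were alike in both hearts. Itpr2-202, with 2668 codons, held 33.4% in replicate 1 and 34.0% in replicate 2, and Itpr2-201, with 2701 codons, held 17.0% and 17.2%. Read-based shares were 28.9% and 32.5% for Itpr2-202, and 26.4% and 27.5% for Itpr2-201. The frames differ by 99 bases at chr6:146418418-146418516 on the minus strand, in capitals below.
Itpr2-201: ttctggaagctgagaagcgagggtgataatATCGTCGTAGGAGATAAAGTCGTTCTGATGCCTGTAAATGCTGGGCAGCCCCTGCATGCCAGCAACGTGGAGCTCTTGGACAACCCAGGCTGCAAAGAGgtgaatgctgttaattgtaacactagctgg
Itpr2-202: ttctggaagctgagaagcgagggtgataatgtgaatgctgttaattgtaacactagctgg

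Other Itpr2 RNA lay outside these frames. Itpr2-206, annotated as a target of nonsense-mediated decay, held 22.4% and 23.5% of the gene, and the processed transcript Itpr2-203, with 582 bases, held 16.7% and 12.2%. In counts these forms were smaller, at 10.1% and 10.4% for Itpr2-206 and at 1.33% and 0.952% for Itpr2-203. Transcripts with at least 90% of the longest frame held 50.4% and 51.1% of Itpr2 and 41.6% and 47.7% of Itpr1 in TPM. In counts they held 86.9% and 86.1% of Itpr2 and 85.8% and 87.5% of Itpr1. In counts Itpr3 was nearly a single form, since Itpr3-201, with 2670 codons, held 99.3% and 100% of the gene. In TPM Itpr3-201 held 80.2% in replicate 1 and 100% in replicate 2, and in posterior mean TPM 74.5% and 91.4%.

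Jph2 (ENSMUSG00000017817.11, minus strand of chr2:163336242-163397993), junctophilin 2, was the third highest gene. Its level was 160.91 TPM in replicate 1 and 156.63 TPM in replicate 2, from 22357 and 22484 counts, a mean of 158.8 ± 3.03 TPM (SD, n = 2). The log2 difference of Jph2 over Ryr2 was -1.28 ± 0.01, with one of the smaller SDs of the 12 pairs compared. Jph2-201 held 99.8% and 100% of the gene. In read-based values Jph2-202, which has the same 696 codons, took 2.07% in replicate 1 and 10.6% in replicate 2. Jph1, the junctophilin of skeletal muscle, was at 8.50 TPM and 8.70 TPM, a log2 difference of Jph2 over Jph1 of 4.19 ± 0.05. The other junctophilins, Jph3 and Jph4, which are known from brain, were below 0.1 TPM.

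Trdn (ENSMUSG00000019787.9, plus strand of chr10:33080554-33476709), triadin, had 138.21 TPM in replicate 1, against 137.50 TPM in replicate 2, from 7838 and 8004 counts, a mean of 137.9 ± 0.502 TPM (SD, n = 2). Short forms made up most of it. Trdn-202, with 9 exons and 293 codons, held 55.9% and 54.8% of the gene. Trdn-201, with 38 exons and 693 codons, held 8.50% and 8.53%. Trdn-208, with 277 codons, held 7.04% and 6.56%. Read-based shares were 47.5% and 50.0% for Trdn-202, 10.7% and 10.6% for Trdn-201, and 14.6% and 14.0% for Trdn-208, so Trdn-202 led in both hearts by either quantification. In counts the long form weighed more, at 22.4% and 22.6% for Trdn-201 against 36.0% and 35.6% for Trdn-202.

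The triadin frames share their start and part at the 3′ side, as the sequences below show. Each line starts at the same coding base, number 758 of the frame. In Trdn-202 the frame runs on without a splice, past the end of an exon of Trdn-201, for 32 bases at chr10:33200223-33200254. In Trdn-208 it runs on in the same way 1 exon earlier, for 44 bases at chr10:33196126-33196169. In Trdn-201 the exon is spliced to the next one, which starts at 33233855. Capitals in Trdn-202 and Trdn-208 are bases absent from the frame of Trdn-201, and capitals in Trdn-201 are bases absent from that of Trdn-202.
Trdn-202: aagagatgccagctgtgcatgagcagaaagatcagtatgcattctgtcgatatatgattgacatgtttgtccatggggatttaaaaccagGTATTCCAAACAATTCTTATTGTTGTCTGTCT
Trdn-208: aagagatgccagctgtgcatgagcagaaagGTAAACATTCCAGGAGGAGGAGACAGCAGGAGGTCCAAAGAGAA
Trdn-201: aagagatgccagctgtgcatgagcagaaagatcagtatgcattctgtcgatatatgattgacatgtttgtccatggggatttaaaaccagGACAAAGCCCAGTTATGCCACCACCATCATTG

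A further 23.8% of Trdn in replicate 1 and 24.4% in replicate 2 was assigned to Trdn-204, a single-exon retained-intron transcript at chr10:33198705-33200369 that lies over the 3′ end of Trdn-202. Reads within their shared bases cannot be told apart by sequence. Both had similar shares in the 2 hearts. The span of Trdn also overlaps D830005E20Rik, an antisense gene with 13.71 TPM and 12.89 TPM. The limits on strand and exons given for Ryr3 apply to it. The annotation gives no product names, so no form is equated here with a named triadin isoform.

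Asph (ENSMUSG00000028207.18, minus strand of chr4:9448069-9669344) encodes aspartate beta-hydroxylase and, by alternative splicing, the shorter proteins junctin and junctate, which lack the enzyme part. Its level was 106.63 TPM in replicate 1 and 107.69 TPM in replicate 2, from 7786 and 7839 counts, a mean of 107.2 ± 0.750 TPM (SD, n = 2). Clvs1, on the opposite strand, has a span that shares 3623 bases with that of Asph, and it had 1.26 TPM and 1.40 TPM. The complete frames of Asph end at 4 positions. Frames of 207 to 245 codons that end at 9621883 (Asph-201 and Asph-206) held 49.0% and 50.3% of the gene. Frames of 215 to 310 codons that end at 9576969 (5 transcripts, led by Asph-208) held 16.6% and 15.8%. Frames of 658 to 741 codons that end at 9453298 (Asph-202, Asph-211 and Asph-212), the longest of the gene, held 11.7% and 10.8%. Frames that end at 9630711 held 2.18% and 2.55%.

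This order of the Asph frame ends was the same in both hearts and in read-based values, where the first class held 60.6% and 64.7%, the second 14.2% and 14.0%, and the third 10.1% and 9.84%. In counts the long frames drew level with the short ones, at 35.5% and 33.9% against 35.5% and 38.1%. Within the first class Asph-206 led, with 41.0% and 43.2% of the gene, and Asph-201 held 8.03% and 7.11%. In read-based values Asph-201 held 26.2% and 26.4%. The long frames differed in opposite directions in the alignment-based table. Asph-212 had 1380 counts in replicate 1 and 693 in replicate 2, Asph-202 had 1188 and 1520, and Asph-211 had 199.5 and 447. Read-based counts of Asph-212 were 0 in both hearts.

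The first coding exon separates Asph-206 from Asph-201, as the next pair of sequences shows; capitals are the bases each has alone, at chr4:9643535-9643550 for Asph-206 and at chr4:9668781-9668910 for Asph-201, on the minus strand.
Asph-206, start of its frame: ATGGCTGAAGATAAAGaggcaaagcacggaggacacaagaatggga
Asph-201, start of its frame: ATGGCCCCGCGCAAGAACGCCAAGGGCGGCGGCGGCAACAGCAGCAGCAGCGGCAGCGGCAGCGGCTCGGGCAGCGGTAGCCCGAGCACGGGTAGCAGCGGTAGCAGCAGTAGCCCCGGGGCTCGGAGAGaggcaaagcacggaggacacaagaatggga

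An exon that begins at 9624401 separates the short class from Asph-208, and it is also present in Asph-220, a transcript of 615 bases whose annotated frame is incomplete. Asph-220 held 18.1% in replicate 1 and 18.0% in replicate 2, but 9.34% and 6.40% in read-based values and 4.33% and 4.46% in counts. Asph-220 carries the first 42 of these bases (chr4:9624360-9624401) and then joins the exon that follows in Asph-208, so it belongs to neither frame class as annotated. The branch is shown from 30 bases before it; capitals are bases that Asph-208 lacks.
Asph-206: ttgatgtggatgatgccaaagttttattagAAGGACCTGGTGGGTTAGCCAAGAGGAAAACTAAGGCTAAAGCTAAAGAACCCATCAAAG
Asph-220: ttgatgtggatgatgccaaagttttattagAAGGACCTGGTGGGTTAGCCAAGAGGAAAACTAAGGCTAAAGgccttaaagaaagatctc
Asph-208: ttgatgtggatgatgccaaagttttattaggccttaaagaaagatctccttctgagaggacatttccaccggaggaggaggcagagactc

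Asph-208 and Asph-202 begin with different coding exons. Asph-208 ends with 5 coding bases at chr4:9576969-9576973, where Asph-202 continues with other exons. The pair is shown because it marks where the second class leaves the long frame; capitals are the bases that the other lacks.
Asph-208: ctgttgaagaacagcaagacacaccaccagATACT
Asph-202: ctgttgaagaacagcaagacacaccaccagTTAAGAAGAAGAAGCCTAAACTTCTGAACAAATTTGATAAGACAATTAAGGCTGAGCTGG

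**Figure D3:**
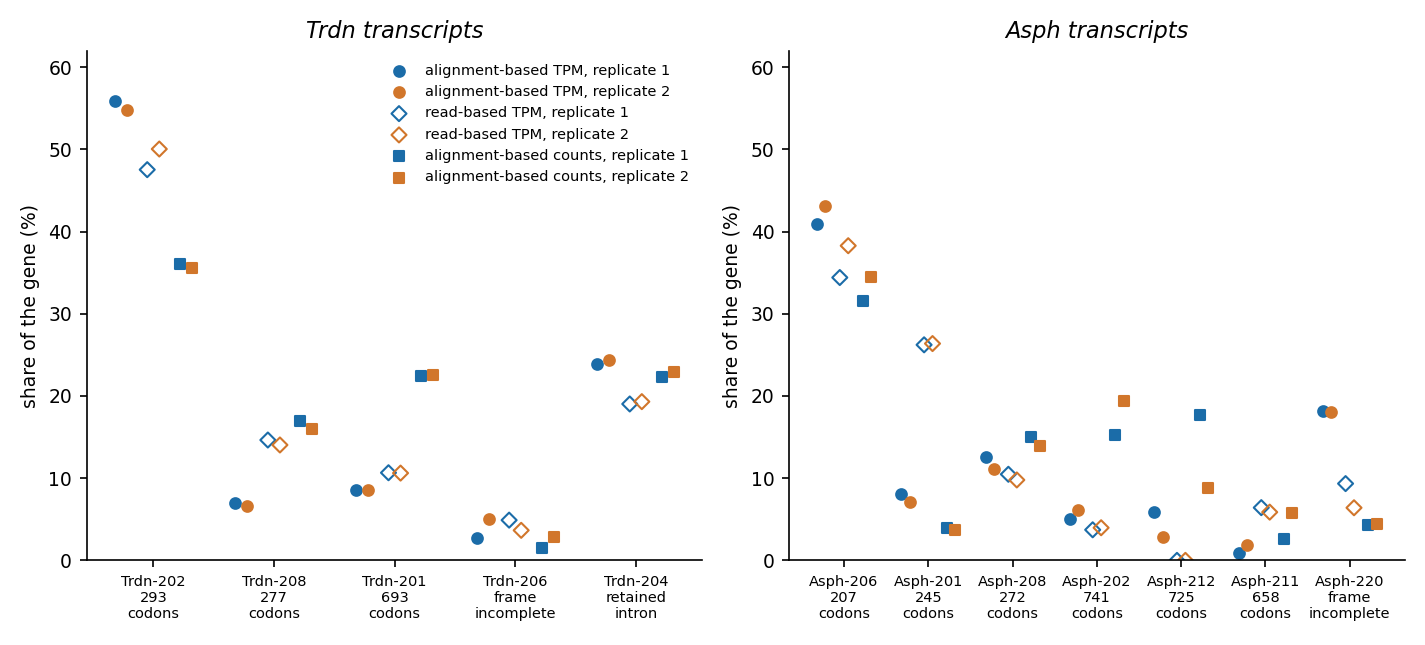
Share of the gene (%) held by each Trdn transcript (left) and Asph transcript (right) in replicate 1 (blue) and replicate 2 (orange), from alignment-based TPM (circles), read-based TPM (diamonds) and alignment-based counts (squares), with the frame's codons under each name. Trdn-202 and Asph-206 lead by TPM in both hearts, and the long forms Trdn-201 and Asph-202 take larger shares of counts than of TPM.

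Casq2 (ENSMUSG00000027861.13, plus strand of chr3:102086415-102146514), calsequestrin 2, was the highest of the 10 genes per length. Its level was 425.92 TPM in replicate 1 and 421.24 TPM in replicate 2, from 35137 and 35945 counts, a mean of 423.6 ± 3.31 TPM (SD, n = 2). The log2 difference of Casq2 over Ryr2 was 0.14 ± 0.02, and 0.52 in read-based values. Read-based TPM of Casq2 was 564 and 599, which is 1.32 and 1.42 times the alignment-based TPM, whereas read-based counts were 1.01 and 1.02 times the alignment-based counts. The tables differed in Casq2-202, a processed transcript of 628 bases, which held 19.0% and 16.6% of the gene in read-based TPM, and 0.06% and 0.00% in alignment-based TPM. They also differed in Casq2-203, a retained-intron transcript, at 1.47% and 7.73% in read-based TPM and at 0.60% and 0.50% by alignment. Casq2-201, with 415 codons, held 98.9% and 99.1% by alignment. Casq1, the calsequestrin of fast skeletal muscle, was at 6.91 TPM and 5.24 TPM, a log2 difference of Casq2 over Casq1 of 6.11 ± 0.27. The protein-coding nuclear genes closest to Casq2 in level, by Euclidean distance of log2(TPM + 0.1) over 4 values (2 hearts by 2 quantifications), were Nme2 at 0.11, Srl at 0.16 and Chchd2 at 0.17, of 22014 genes searched.

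Transcripts with at least 90% of the longest frame made up very different shares of the 8 detected genes. By alignment-based TPM they held 99.2% of Casq2 in replicate 1 and 99.4% in replicate 2 and all of Jph2, but 8.50% and 8.53% of Trdn and 10.85% and 8.94% of Asph. For Asph these shares were 3.72% and 3.97% in read-based TPM and 33.0% and 28.2% in counts, and for Trdn they were 22.4% and 22.6% in counts. Counted by such transcripts alone, Ryr2 had 319 TPM in replicate 1, against 321 TPM in replicate 2, and Trdn had 11.75 TPM and 11.73 TPM. Asph stood at 11.6 TPM and 9.63 TPM by that measure, and at 5.33 TPM and 5.56 TPM in read-based values. Shares summed over all transcripts annotated as protein coding were higher, at 76.1% and 75.6% for Trdn and 97.7% and 97.4% for Asph.

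**Figure D4:**
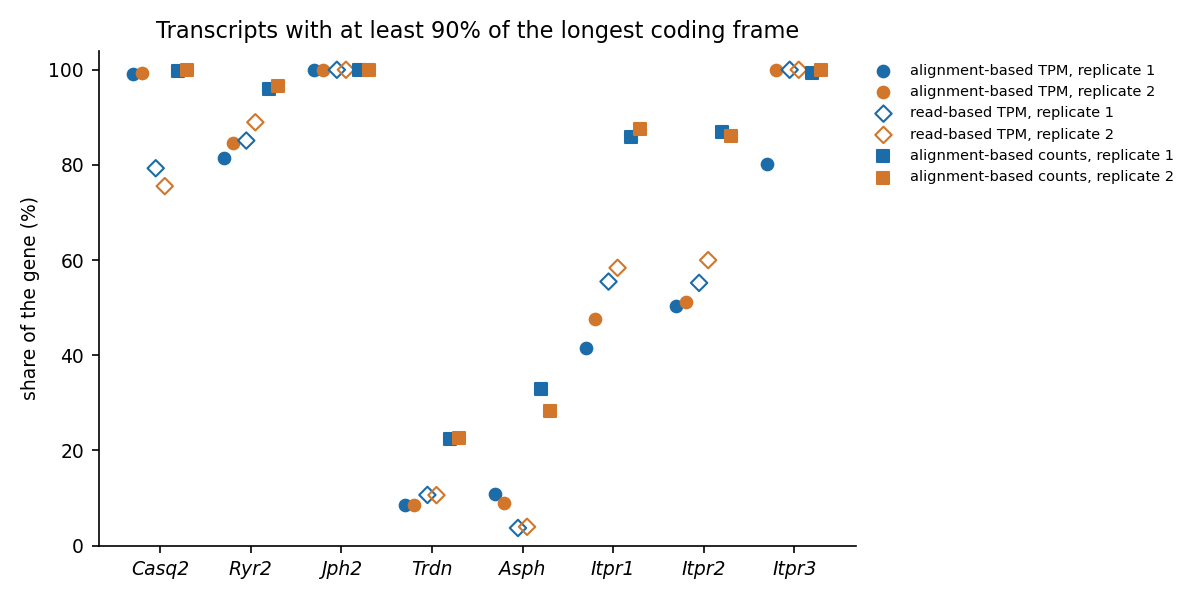
Share of each detected gene (%) held by transcripts with at least 90% of the longest annotated coding frame, in replicate 1 (blue) and replicate 2 (orange), from alignment-based TPM (circles), read-based TPM (diamonds) and alignment-based counts (squares). Trdn and Asph lie below 35% by every measure, and Itpr1 and Itpr2 lie near 50% in TPM and above 85% in counts.

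The libraries were compared over all genes averaging 10 counts or more, by an exact binomial test of TMM-scaled counts with Benjamini-Hochberg adjustment. Of 9 members tested, 1 was called higher in replicate 1 and 4 were called higher in replicate 2 at an adjusted p below 0.05. Of all 15839 genes 20.3% were called, 10.9% higher in replicate 1 and 9.43% lower there. None was called at a ratio of at least 2 with separate credibility intervals, against 0.802% of all genes. Itpr2 was higher in replicate 1, at a ratio of 1.25 (95% exact interval 1.17 to 1.34). Ryr2 was lower in replicate 1, at 0.943 (0.937 to 0.949), as were Casq2 at 0.952 (0.938 to 0.966), Trdn at 0.953 (0.924 to 0.984) and Jph2 at 0.968 (0.950 to 0.986). Asph was at 0.967 (0.937 to 0.998), with an adjusted p of 0.133 by the exact binomial method. Itpr1 was at 1.07 (1.01 to 1.13), with an adjusted p of 0.0713 by that exact method. Itpr3 at 1.04 (0.928 to 1.16) and Ryr3 at 1.21 (0.927 to 1.59) were not called either. The median log2 ratio was -0.05 over the 9 members and -0.0012 over all genes tested. The median size of the log2 ratio over all genes was 0.14.

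The direction of the small differences depended on scaling. Scaling to the spike-in totals raised every log2 ratio by 0.10. The values for Ryr2, Jph2, Trdn, Asph and Casq2 then ran from 0.0158 to 0.0533, above 0. With that scaling 5 members were called higher in replicate 1 and 0 lower, while over all genes 23.3% were called higher and 3.21% lower. Trdn was not called under spike-in totals, total counts or DESeq2 size factors. The call for Itpr2 kept its direction under each scaling tried. For Ryr2 the TPM was higher in replicate 1 although its scaled count was lower there, and the effective length of the gene in the table was 14180 bases in replicate 1 and 14632 in replicate 2. Marker lists moved too. Under TMM all 5 cardiomyocyte markers were called lower in replicate 1 (summed 25195 TPM, against 26289 TPM in replicate 2). In the same test 4 of 4 endothelial and 3 of 4 smooth muscle markers were called higher there. Over all genes 9.43% were called lower and 10.9% higher under TMM. The cardiomyocyte ratios ran from 0.896 for Tnni3 to 0.943 for Actn2, and the test covers counting error only. Under spike-in totals the cardiomyocyte marker Actn2 changed its direction and the other markers of these lists kept theirs. Their part in the members' ratios was not tested.

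**Figure D5:**
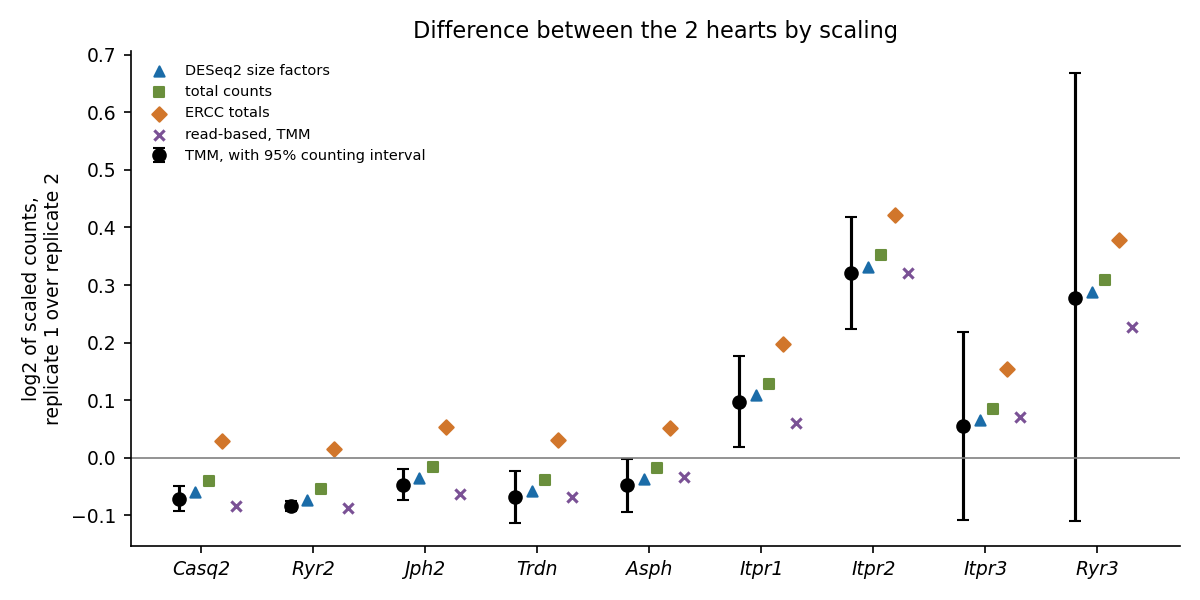
The log2 ratio of scaled counts, replicate 1 over replicate 2, for the 9 members tested; black circles with 95% counting intervals use TMM, and the other symbols show 3 further scalings and the read-based counts. Itpr2 lies above 0.2 under every setting, and the 5 members above 100 TPM lie below 0 except under spike-in totals, where they lie above it.

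The members have 95 annotated transcripts, of which 55 had a mean count of at least 10. By the same test 28 of the 55 were called different between the libraries, against 35.9% of 41047 transcripts over all genes, and 0 passed the ratio of 2 with separate intervals, against 1.69%. The leading transcript was the same in both hearts and both quantifications for 7 members, and the others were Itpr1, Ryr1 and Ryr3. Called shifts of opposite direction occurred within pairs of long forms. By alignment Itpr1-201 had a scaled ratio of 7.26 (6.18 to 8.57), whereas Itpr1-205 had 0.514 (0.476 to 0.554). These intervals leave out the uncertainty of assigning reads between forms whose coding sequences differ by 3 bases. In read-based TPM Itpr1-201 stood above Itpr1-205 in both hearts. Ryr3-201 had 121 counts in replicate 1 and 0.08 in replicate 2, whereas Ryr3-202 had 4.38 and 96.9. In the read-based table Ryr3-202 had 87.6 and 0.40 counts.

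Nearly all listed partners of the ryanodine receptor were detected. The limit was passed by 12 of 13, and the list's median was 75.5 TPM in replicate 1 and 75.0 TPM in replicate 2. The highest were Hrc, a calcium-binding protein of the reticulum lumen, at 318 ± 1.10 TPM (SD, n = 2), S100a1, a calcium sensor, at 304.5 ± 7.68 TPM, and Prkaca, a catalytic subunit of protein kinase A, at 140 ± 1.66 TPM. Of the FK506-binding proteins that bind the channel, Fkbp1a was at 95.64 TPM and 91.59 TPM and Fkbp1b at 0.64 TPM and 0.58 TPM; Fkbp1b, the 1 gene of the list below the limit, was named after its value was seen. Hrc, S100a1, Akap6, Prkaca and Camk2d were called lower in replicate 1, with no ratio reaching 2; under spike-in totals Hrc had a log2 ratio of 0.0017, and of these 5 genes Akap6 alone was still called. The 5 genes called lower under TMM were among 13 tested, beside 9.43% of all genes called lower there. Under spike-in totals 4 of the 13 were called higher and 1 lower, beside 23.3% and 3.21% over all genes.

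Among 14 relatives of the junction and the reticulum 9 were detected, with medians of 6.97 TPM in replicate 1 and 5.99 TPM in replicate 2. The highest were Tmem38a, a potassium channel of the reticulum, at 178 ± 2.85 TPM (SD, n = 2), Cacna1c, the pore subunit of the T-tubule calcium channel, at 71.3 ± 2.89 TPM, and Speg, a junctional kinase, at 50.9 ± 5.01 TPM. Jph3, Jph4, Jsrp1, Asphd1 and Asphd2 were the 5 below the limit. Of 10 tested, Casq1 was called higher in replicate 1, and Tmem38a and Cav3 were called lower there, beside 10.9% and 9.43% over all genes. Under spike-in totals 4 of the 10 were called higher and 1, Cav3, lower, beside 23.3% and 3.21% over all genes. Asphd1 and Asphd2, which resemble the hydroxylase domain of Asph, stayed below 0.3 TPM in both hearts by alignment. Their read-based values were at most 0.53 TPM.

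Inputs and partners of the InsP3 receptors had lower medians than those of the ryanodine receptor. Of 12 genes, 10 were detected, with medians of 7.25 TPM in replicate 1 and 5.88 TPM in replicate 2. The highest were Ahcyl1, an InsP3 receptor inhibitor, at 30.0 ± 1.73 TPM (SD, n = 2), Plcb4, a phospholipase C, at 24.8 ± 4.09 TPM, and Plcg1, another, at 22.5 ± 0.658 TPM. Plcb4, Plce1, a further phospholipase C, Mrvi1, which links the receptor to cyclic GMP signals, and Cabp1, a calcium-binding protein, were called higher in replicate 1 and no gene of the list lower. These were 4 of 11 genes tested, beside 10.9% called higher and 9.43% called lower over all genes. Under spike-in totals 8 of the 11 genes tested were called higher and 0 lower, beside 23.3% and 3.21% over all genes. Under TMM 4 of 4 endothelial and 3 of 4 smooth muscle markers were called in the same direction, and their part in these ratios was not tested. The list's median log2 ratio was 0.12, against -0.06 for the ryanodine receptor partners and -0.0012 over all genes tested. None of the 3 lists held a gene called at a ratio of 2.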

How the data were processed

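Gene and transcript tables of 2 libraries were used, made by the authors on mm10 with GENCODE M21, per the deposited file listings; what software quantified them is not given in the sources used here. Expected and estimated counts, deposited per the file headers, are reads assigned to each entry, not normalized. TPM was scaled by the authors to a fixed total over all table entries, spike-ins included. The percent columns deposited in the alignment-based transcript tables give each transcript's share of its gene. The score columns hold deposited bounds of a credibility interval on the posterior TPM, whose level the headers do not state. Effective lengths were deposited in bases.

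Read-based transcript values were summed to genes. Of the 10 members, 42 transcripts with at least 5% of the gene in either heart and quantification could be named, with the 3 highest genes of each list; other names are given for counts of 5 or fewer, and Ryr2-205, Ryr2-207 and Ryr2-208 were named after their values were seen. Counts were scaled with TMM of edgeR 4.0.16 in R 4.3.3 over genes averaging 10 counts or more, with DESeq2 1.42.0 size factors, total counts and totals of 96 ERCC spike-ins as alternatives. The split of rounded counts was tested with the exact binomial distribution, two-sided, at a threshold of 0.05, since 1 library on each side leaves no residual spread. The test and the interval were tried on simulated counts that held counting noise only. That trial cannot show how they behave under the wider spread between these libraries. P-values and 95% intervals cover counting error only, and over all genes the libraries had a chi-square per gene of 13.3 against counting noise. Frames and sequences came from the GENCODE M21 annotation and transcripts; codons exclude the stop codon, and coordinates of frame ends are the last base before it. Tables were handled with pandas 2.3.3 and numpy 2.4.6 in Python 3.11.15, tests were run with scipy 1.17.1 and plots drawn with matplotlib 3.10.9. The members, lists and tests were chosen with earlier results of these data known. One result of the list of ryanodine receptor partners is not reported here.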

Additional observations from a re-analysis of the deposited data

How the results depend on the processing

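Summed TPM of the 10 genes was 1239, against 1477 in read-based values and 3179 when rescaled to protein-coding nuclear genes. Ryr2's share of its family (99.9028%) was 99.8646% in read-based TPM, 99.6009% in posterior mean TPM and 99.9384% in counts. Itpr1's share of its family (59.0%) was 54.5% in read-based TPM and 52.3% in counts. Trdn-202's share (55.3%) was 48.8% in read-based TPM, 54.5% in posterior mean TPM and 35.8% in counts, and Asph-206's share (42.1%) was 36.3% in read-based TPM and 33.0% in counts. The median protein-coding share over the 8 detected genes (92.8%) was 98.5% in counts. Genes called at a ratio of 2 (127) numbered 333 in read-based counts, where no credibility interval exists, and 25 at a mean count of at least 100. Under ERCC totals the log2 ratios of Ryr2 (0.0158), Jph2 (0.0533), Trdn (0.0312), Asph (0.0516) and Casq2 (0.0286) changed sign; the cause was not tested. The calls for Trdn under the DESeq2, total and ERCC scalings, and for Jph2 under total counts, were lost, and Itpr1 was called under the DESeq2, total and ERCC scalings. Leaving out a replicate gave 1225 to 1253 TPM for the sum, 58.2% to 59.8% for Itpr1, 54.8% to 55.9% for Trdn-202, 41.0% to 43.2% for Asph-206 and 89.2% to 96.3% for the protein-coding share. The counts weighting of transcript shares and the full-frame levels were added after seeing the data. No paired analysis was possible because there is 1 group only. With 2 hearts, an SD rests on a single difference, and levels below 1 TPM rest on few reads.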
